A study of Mus musculus with 12 samples.

Results

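C2C12 cells, an established line of mouse myoblasts that can withdraw from the cell cycle and fuse into muscle fibres, were compared between 2 glucose concentrations. The high glucose group was kept for 24 h in DMEM with 25 mM glucose and the low glucose group for 24 h in the same medium with 5 mM glucose. Both media held 1 mM sodium pyruvate, 10% fetal bovine serum and 1% penicillin and streptomycin. The low glucose medium thus supplied glucose, pyruvate and amino acids at the start. How much of them was left after 24 h is not in the labels. Libraries of polyA RNA were sequenced, 4 for each group; a further group of 4 libraries, 12 in all, grew in 10 mM galactose with no glucose. All groups are the same cell line with no genetic change named in the labels, and no label states if the 4 libraries of a medium were grown as different cultures. The members described here are the loci that the authors' tool tested between high and low glucose, 14699 of the 26271 loci listed, taken from their deposited table by its test status. The series' own design text instead describes muscle stem cells, some cultured for 96 h, but the groups here follow the labels of the samples. The 2 groups differ in glucose concentration by label, and no sugar or lactate measurement was used here.

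The table holds 1 pooled FPKM value (fragments scaled to transcript length and to the mapped fragments of the library) per group and locus, so no value per library, SD or n can be given and depth is unknown. Each change is given as a log2 change, log2((low glucose + 1) / (high glucose + 1)) of the 2 FPKM values, which is positive where low glucose was higher and understates changes of genes near or under 1 FPKM. A locus was called, and is said to have risen or fallen, where the authors' q-value was below 0.05. The authors' test describes these libraries, and its spread between libraries is not shown in the file. Calls numbered 5355 (36.4% of the tested loci), with 2683 loci higher (18.3%) and 2672 lower (18.2%) in low than in high glucose, and these shares are the background for every gene list below. The median log2 change over all tested loci was 0.0059.

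As background, mammalian cells read their nutrient supply through several linked systems. When a tRNA is uncharged or proteins misfold, kinases that phosphorylate the initiation factor eIF2 slow general translation and favour translation of the transcription factor ATF4, which switches on genes for amino acid uptake, amino acid synthesis and tRNA charging. Glucose itself is read by the MondoA and Mlx factors, sterols by the SREBP factors, and energy by the kinase AMPK. In muscle, proliferating myoblasts express Myod1 and Myf5, and their exit into differentiation is held back by Notch signalling and marked by Myog and sarcomere genes.

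ATF4 binds, with a C/EBP partner, a short element that in its strict form reads TGATGNAA. Stretches of the promoter windows of 6 members that rose and hold this element are shown first. They are examples from 4 of the lists in which it was counted. The single match in the window of Trib3 lies after its annotated start and is not printed. The windows come from RefSeq (build GRCm38.p6), 250 bases before to 50 bases after the annotated start, of which only bases before the start are printed. Each is written 5′ to 3′ along the gene's strand, with every match to the element on either strand in capitals.

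Chac1, chr2:119351009-119351096, plus strand: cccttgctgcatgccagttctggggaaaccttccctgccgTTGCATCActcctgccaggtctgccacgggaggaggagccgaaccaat

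Nupr1, chr7:126625533-126625620, minus strand: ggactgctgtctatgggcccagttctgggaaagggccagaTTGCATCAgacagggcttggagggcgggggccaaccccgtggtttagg

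Fgf21, chr7:45615582-45615669, minus strand: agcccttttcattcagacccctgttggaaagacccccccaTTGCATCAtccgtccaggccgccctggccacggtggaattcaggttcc

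Pycr1, chr11:120643804-120643891, minus strand: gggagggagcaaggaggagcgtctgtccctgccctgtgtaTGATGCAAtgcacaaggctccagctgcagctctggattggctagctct

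Slc7a11, chr3:50443614-50443700, minus strand: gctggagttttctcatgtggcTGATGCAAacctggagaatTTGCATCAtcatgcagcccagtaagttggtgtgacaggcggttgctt

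Tars, chr15:11399659-11399713, minus strand: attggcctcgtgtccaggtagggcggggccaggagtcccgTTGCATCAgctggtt

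In Pycr1 the element stood as spelled, in Slc7a11 in both orientations, and in the other 4 windows as its reverse complement. TGATGNAA was present on either strand in 4.06% of the windows of 27025 symbols and in 2.15% of those of 8247 tested loci with 1 symbol. It was found in 5 of 20 windows of the ATF4 and CHOP core list, 3 of 23 of the amino acid synthesis list, 2 of 14 of the amino acid transporter list and 5 of 12 of the cytosolic tRNA synthetase list. All 15 of these members rose, Aars among them in a locus it shares with another symbol, and so did 35 of the 54 members of the same lists whose window lacked it. In other lists the element was found in 2 of 22 windows of the sterol list and 1 of 15 of the fatty acid synthesis list. It stood in 1 of 29 ribosome biogenesis windows, 1 of 24 sarcomere windows and 0 of 15 collagen windows. Among all tested loci with 1 symbol, 42 of 177 with the element rose (23.7%) and 35 fell. Without it, 1501 of 8070 rose (18.6%) and 1685 fell. The 177 include members of the ATF4, amino acid and tRNA synthetase lists counted above, which all rose. The higher share with the element thus cannot be read apart from these lists. A match is a string in a window, not a measured binding site.

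The core of the ATF4 pathway was higher in low glucose. Of 20 tested members, 15 rose and 1 fell, with a median log2 change of 0.58. Trib3, a pseudokinase gene and late target of ATF4 and CHOP, went from 5.58 to 49.0 FPKM, the largest rise among the named genes (log2 change 2.93). Its locus lies on chromosome 2 from 152337425 to 152344060 (mm10). Chac1, whose enzyme degrades glutathione, went from 23.7 to 133 FPKM. Atf4 itself went from 294 to 437 FPKM and Ddit3, which encodes CHOP, from 48.2 to 86.4 FPKM, log2 changes of 0.57 and 0.83. The RNA of both factors changed by less than that of their targets Trib3 and Chac1. It changed by more than that of the list members Ppp1r15a and Ddit4, given below. Atf5 and Cebpg, which encode related bZIP factors, rose by 1.02 and 0.82. Nupr1, a small stress-induced chromatin protein gene, went from 49.4 to 110.4 FPKM.

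Genes of the pathway's brakes and of its secreted products rose as well. Sesn2, whose protein restrains mTORC1 when leucine is scarce, went from 8.55 to 22.4 FPKM, while Ddit4, another mTORC1 inhibitor, had a log2 change of 0.22. Ppp1r15a, which encodes the subunit that directs eIF2 dephosphorylation, rose by 0.44. The stress hormone gene Gdf15 went from 52.5 to 85.2 FPKM, and Fgf21 stayed low at 0.0925 to 0.690 FPKM although it was called higher. Of the 4 eIF2 kinase genes, Eif2ak3 (PERK) fell from 6.76 to 5.53 FPKM and the other 3 were not called: Eif2ak4 (GCN2) stood at 6.08 and 6.31 FPKM, Eif2ak1 at 16.2 and 15.9 FPKM and Eif2ak2 at 130.2 and 139 FPKM in high and low glucose. RNA levels of the kinases do not measure their activity.

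**Figure D1:**
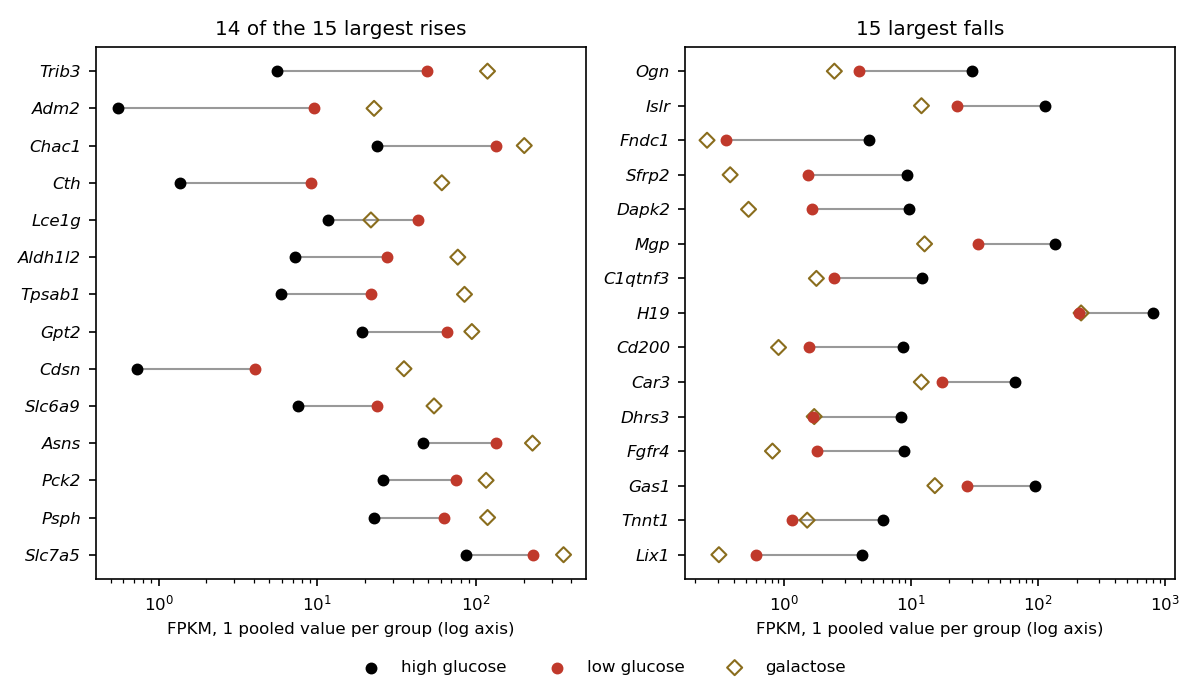
FPKM on a log axis of 14 of the 15 largest rises (left) and the 15 largest falls (right) by log2 change among called genes with 1 symbol; black points are high glucose, red points low glucose and open diamonds galactose, each 1 pooled value with no error. Trib3 moved from 5.58 to 49.0 FPKM and Ogn from 30.2 to 3.85 FPKM, and H19 had nearly the same value in low glucose and galactose (209.9 and 217 FPKM).

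Enzymes that make amino acids rose in 21 of 29 tested cases and fell in 3, with a median log2 change of 0.53. The serine branch rose at each step: Phgdh, the entry enzyme, went from 119 to 179.5 FPKM, Psat1 from 99.7 to 212 FPKM and Psph from 22.7 to 62.7 FPKM. The mitochondrial folate enzymes that use serine rose with them, Shmt2 from 117 to 282 FPKM, Mthfd2 from 51.8 to 124 FPKM and Aldh1l2 from 7.27 to 27.6 FPKM. Their cytosolic counterparts changed less, with log2 changes of 0.68 for Shmt1 and 0.30 for Mthfd1, against 1.26 for Shmt2 and 1.24 for Mthfd2.

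In other branches of synthesis single genes rose, fell or were not called. Asns, the asparagine synthetase gene, went from 46.2 to 134 FPKM. In proline synthesis Aldh18a1 rose from 27.3 to 66.4 FPKM and Pycr1 from 3.64 to 7.95 FPKM, whereas Pycrl, which encodes a related reductase, was not called, at 45.4 and 49.3 FPKM. Gpt2, the mitochondrial alanine aminotransferase gene, went from 19.3 to 65.5 FPKM, while Gpt, its cytosolic counterpart, lies in a combined locus (a locus holding several symbols) that fell by 0.31 on the log2 scale. Cth, which makes cysteine from cystathionine, went from 1.37 to 9.08 FPKM, and Cbs, the step before it, was not called and stood at 0.445 and 0.318 FPKM. The branched-chain aminotransferases went opposite ways: cytosolic Bcat1 rose from 16.4 to 34.8 FPKM and mitochondrial Bcat2 fell from 27.1 to 19.4 FPKM. Glul, the glutamine synthetase gene, was not called at 24.0 and 21.7 FPKM.

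Amino acid transporters split. Of 20 tested, 10 rose and 5 fell, with a median of 0.25. Both chains of the large neutral amino acid exchanger rose, Slc7a5 from 86.1 to 229 FPKM and Slc3a2 from 96.5 to 193 FPKM. The glycine transporter gene Slc6a9 went from 7.605 to 23.9 FPKM, the glutamine transporter gene Slc1a5 from 18.003 to 35.2 FPKM and the cationic transporter gene Slc7a1 from 18.3 to 33.6 FPKM. Slc7a11, the cystine transporter gene, went from 4.26 to 7.004 FPKM. Slc1a3, a glutamate transporter gene, fell from 9.09 to 2.28 FPKM (log2 change -1.62), and Slc7a2, Slc43a2, Slc36a1 and Slc6a6 fell by smaller amounts. Slc38a2, often counted among ATF4 targets, was not called at 138 and 125 FPKM.

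Cytosolic tRNA synthetase genes, whose enzymes load amino acids onto tRNAs, rose in 19 of 20 cases with a median of 0.63 and none was called lower. Lars, Gars, Nars and Sars were the largest, with log2 changes of 1.04, 1.03, 1.02 and 1.00, and Gars went from 116 to 238 FPKM. At the other end Kars, Dars and Farsa rose by 0.30, 0.23 and 0.23, and the combined locus of Qars was not called. Of these loci 4 lie in combined loci and share their value with a neighbour. Of the 17 mitochondrial synthetase loci, 4 rose and 1 fell, with a median of 0.07. Gars and Kars encode both the cytosolic and the mitochondrial enzyme.

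The translation machinery beyond tRNA charging moved up in small steps. Of 43 initiation and elongation factor loci, 33 rose and none fell, with a median of 0.25. The highest change was of Eif4ebp1, which encodes a repressor of cap-dependent initiation, from 268 to 588 FPKM. The eIF2 subunit genes Eif2s1 and Eif2s2 rose, Eif2s1 from 39.97 to 54.7 FPKM and Eif2s2 from 32.1 to 50.3 FPKM, and so did Eif2b3, a subunit of its exchange factor, from 22.03 to 33.2 FPKM. Eef2 was not called at 1229 and 1254 FPKM, and Eef1a1 was too abundant for the authors' tool to test.

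Ribosome biogenesis factors had the highest share of calls among the 53 lists: 34 of 35 rose, none fell and the median was 0.55. Ubtf and Polr1b, of RNA polymerase I transcription, went from 47.1 to 60.7 and from 11.4 to 18.1 FPKM. The nucleolar proteins nucleolin and nucleophosmin, encoded by Ncl and Npm1, went from 122 to 216 and from 149 to 235 FPKM. Nop56, Nop58 and Dkc1, of the particles that modify ribosomal RNA, rose by 0.69, 0.69 and 0.65. Bop1 was the only tested member not called, at 94.9 and 109.9 FPKM. Myc, a factor known to drive this programme, rose from 44.2 to 72.8 FPKM and its partner gene Max from 35.5 to 42.7 FPKM, while Mxd4 and Mxd1, whose proteins compete with Myc for Max, fell from 18.2 to 6.69 and from 1.51 to 0.801 FPKM.

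The Myc and Max pair recognises the element CACGTG, which is its own reverse complement. It was present in 7.24% of all promoter windows and 10.5% of those of tested loci with 1 symbol. It was found in 8 of 29 windows of the ribosome biogenesis list. Other lists held it too, in 4 of 12 cytosolic tRNA synthetase, 3 of 14 amino acid transporter and 4 of 22 sterol windows. The counts were 2 of 20 in the ATF4 and CHOP core, 2 of 23 in amino acid synthesis and 1 of 15 in fatty acid synthesis. In the sarcomere and collagen lists they were 0 of 24 and 0 of 15. The window of Nop2, which encodes a ribosomal RNA methyltransferase and rose from 63.5 to 86.6 FPKM, is shown as an example, with the element in capitals.

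Nop2, chr6:125131783-125131868, plus strand: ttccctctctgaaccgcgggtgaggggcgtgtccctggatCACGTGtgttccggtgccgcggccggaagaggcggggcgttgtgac

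**Figure D2:**
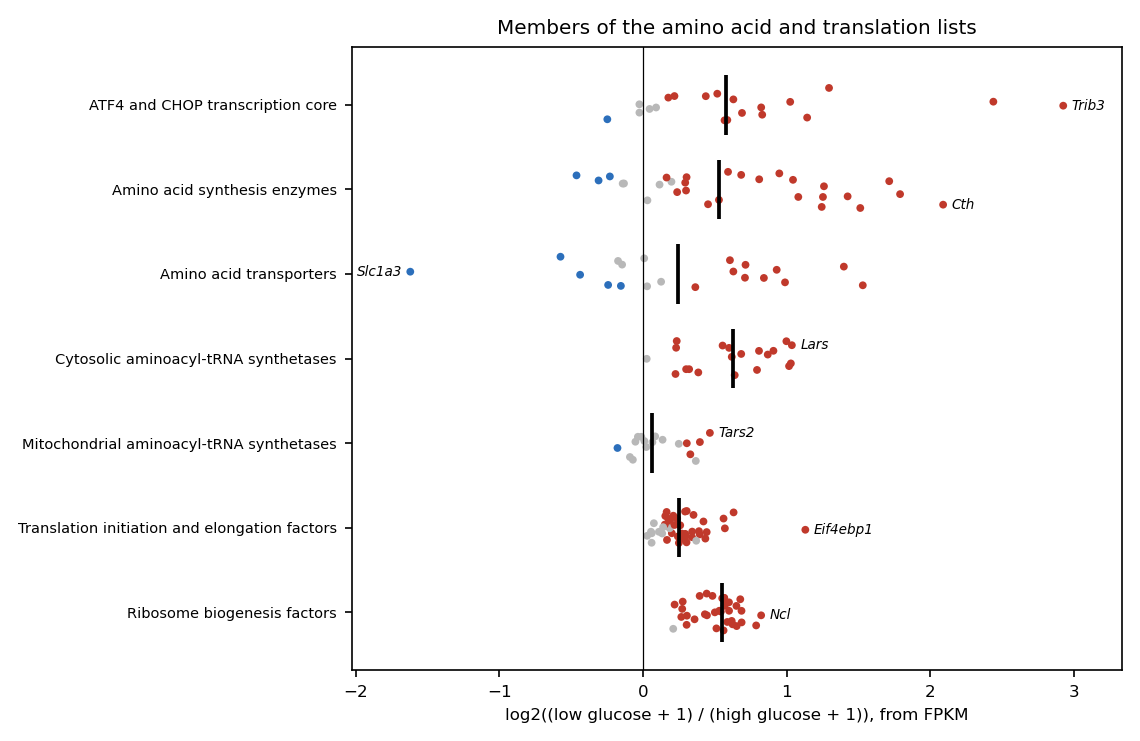
Log2 change from high to low glucose (x axis) of each tested member of 7 lists of amino acid and translation genes; red points were called higher, blue points lower and grey points not called, and black bars mark list medians. The medians run from 0.07 in mitochondrial tRNA synthetases to 0.63 in cytosolic ones, and nearly all ribosome biogenesis points are red.

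Level and direction moved together across the table, which bears on every list of abundant or scarce genes. Among loci whose larger value was at least 100 FPKM, 436 of 1188 were called higher and 119 lower, with a median log2 change of 0.13. Among loci under 1 FPKM, 71 of 1585 were called higher and 382 lower, with a median of -0.10. The FPKM values summed to 548145 in high glucose and 582498 in low glucose, and 6 loci, among them Actb and Vim, were too abundant to be tested. Of these 6 loci, 5 were listed at 0 in both groups. The sums thus leave out some of the most abundant RNA and cannot be compared. The part of level in the list counts was not tested.

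**Figure D3:**
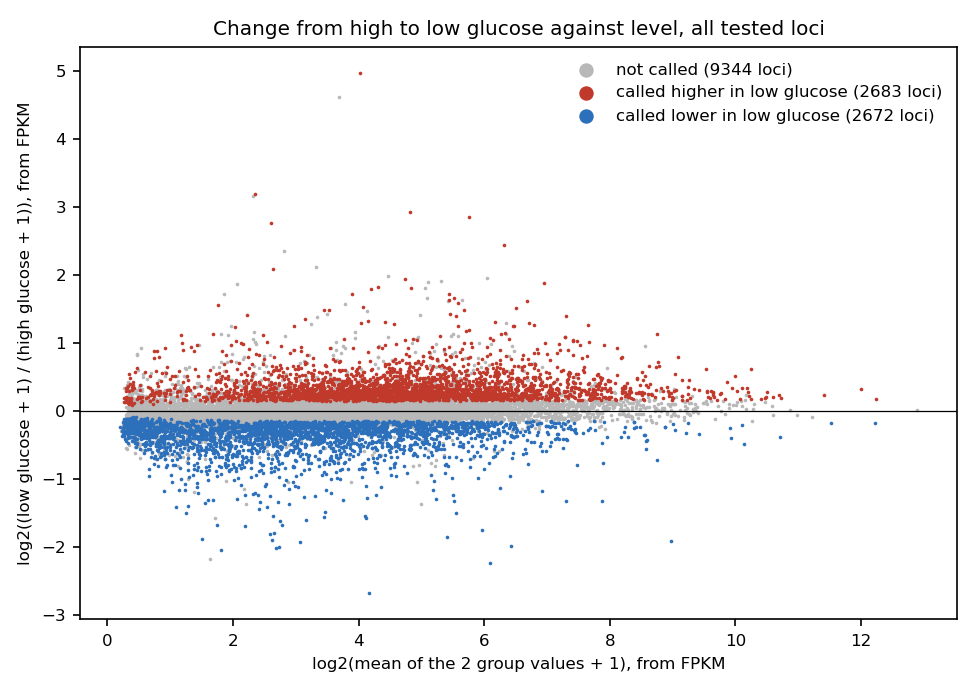
Log2 change (y axis) against log2 of the mean FPKM of both groups plus 1 (x axis) for the 14699 tested loci; red points were called higher, blue points lower and grey points not called. Red prevails to the right, at high levels, and blue to the left, and most called points lie within 0.5 of 0.

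Most calls were small. Among called loci the median absolute log2 change was 0.29, 982 reached 0.5 (440 higher and 542 lower) and 150 reached 1 (68 higher and 82 lower). Of those that reached 1, loci with 1 symbol were 38 higher and 78 lower. Loci with no symbol were 29 higher and 3 lower. The largest rises outside the lists above included Adm2, which encodes the peptide hormone intermedin, from 0.556 to 9.59 FPKM, and Pck2, described with the pyruvate genes. Genes better known from skin and mast cells were among them: Lce1g, a cornified envelope gene, went from 11.7 to 43.2 FPKM, Cdsn, the corneodesmosin gene, from 0.731 to 4.07 FPKM and Tpsab1, a mast cell tryptase gene, from 5.93 to 21.8 FPKM. Lce1g and Tpsab1 have near-identical neighbouring copies, so which copy their reads came from is uncertain.

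The 15 largest falls held genes of several kinds, from matrix proteins to enzymes and a noncoding RNA. Ogn, the gene of the matrix proteoglycan osteoglycin, went from 30.2 to 3.85 FPKM (log2 change -2.68). Its locus is drawn wide in the file, on chromosome 13 from 49420768 to 49652963 (mm10), a stretch that also spans the genes of related proteoglycans. Islr, a secreted leucine-rich repeat protein gene, went from 112 to 22.8 FPKM, and Mgp, the matrix Gla protein gene, from 136 to 33.3 FPKM. Sfrp2, a secreted Wnt modulator gene, went from 9.31 to 1.55 FPKM and Fndc1 from 4.62 to 0.351 FPKM. H19 (chromosome 7 from 142575526 to 142578169, mm10), an imprinted noncoding RNA that is abundant in embryonic muscle, went from 793 to 209.9 FPKM, the largest drop in FPKM among the 15 largest falls. Car3, a muscle carbonic anhydrase gene, went from 65.5 to 17.4 FPKM, Gas1, a growth arrest gene, from 95.1 to 27.5 FPKM and Dapk2, a death-associated kinase gene, from 9.69 to 1.65 FPKM. Cd200, Dhrs3, C1qtnf3, Fgfr4, Tnnt1 and Lix1 completed the 15 largest falls, with log2 changes from -1.93 to -1.68.

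Genes that sense or use glucose directly had calls in both directions, at shares around those of all tested loci (18.3% higher and 18.2% lower). Of 11 tested loci of the glucose sensing list, 2 rose (18.2%) and 3 fell (27.3%). Txnip, a target of MondoA whose protein restrains glucose uptake, fell from 10.3 to 6.21 FPKM, and Arrdc4, a close relative and second MondoA target, was not called at 0.486 and 0.384 FPKM. In glucose transport and glycolysis 3 of 27 rose (11.1%) and 6 fell (22.2%), with a median of -0.04. Hk2, an inducible hexokinase gene, and Pfkfb3, which makes an activator of phosphofructokinase, rose from 21.9 to 28.2 and from 2.69 to 4.50 FPKM. Slc2a1, the main glucose transporter gene here, fell from 91.2 to 72.1 FPKM. The abundant glycolytic genes Pkm and Aldoa were not called, at 1494 and 1566 and 501 and 503 FPKM, and Slc2a4, the insulin-responsive transporter gene, was not tested at 0.240 and 0.0932 FPKM. Gapdh, usually abundant, was not called and is listed at 0.924 and 0.825 FPKM; how reads shared with near-identical copies were treated is not given in the sources used here.

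Of 26 loci of the pentose phosphate, hexosamine and glycogen list, 4 rose (15.4%) and 3 fell (11.5%), with a median of -0.01; these shares too are near those of all tested loci. Gys1, the glycogen synthase gene, rose from 16.5 to 21.1 FPKM. G6pdx and Gfpt1, entry enzymes of the pentose phosphate and hexosamine paths, were not called, at 45.7 and 45.9 and 11.6 and 11.0 FPKM.

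At the entry to the tricarboxylic acid cycle 9 of 37 loci rose (24.3%) and 10 fell (27%), against 18.3% and 18.2% of all tested loci. Single steps differed. Pck2, the mitochondrial enzyme that makes phosphoenolpyruvate from oxaloacetate, rose from 25.999 to 74.7 FPKM (log2 change 1.49). Pcx, the enzyme that makes oxaloacetate from pyruvate, fell from 9.04 to 4.65 FPKM. Of the 4 pyruvate dehydrogenase kinase genes 3 fell: Pdk2 from 3.70 to 1.84 FPKM, Pdk4 from 17.2 to 11.1 FPKM and Pdk1 from 4.06 to 3.43 FPKM, and Pdk3 was not called at 14.96 and 14.9 FPKM. Acss2, which makes acetyl-CoA from acetate, fell from 2.39 to 0.996 FPKM, Acly, which makes it from citrate, from 58.3 to 51.8 FPKM, and cytosolic Idh1 from 39.0 to 24.5 FPKM. Citrate synthase (Cs) was not called at 159 and 175 FPKM.

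Of 25 fatty acid oxidation loci 5 rose (20%) and 7 fell (28%), against 18.3% and 18.2% of all tested loci. Of the 5 rises 3 were combined loci. Acadm, the medium-chain dehydrogenase gene, fell from 28.2 to 21.8 FPKM and Ucp2, an uncoupling protein gene, from 14.95 to 9.40 FPKM. Of 12 mitochondrial biogenesis loci 3 rose (25%) and 1 fell (8.33%). Tfam, the packaging factor of mitochondrial DNA, rose from 10.6 to 12.4 FPKM, and Ppargc1a was not tested at 0.152 and 0.0662 FPKM.

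Sterol genes fell as a group: of 32 tested, 27 fell and 1 rose, with a median of -0.50. The sensing arm included Srebf2, from 92.0 to 62.1 FPKM, and Insig1, which retains SREBP in the endoplasmic reticulum, from 30.8 to 15.4 FPKM, with the largest fall of the list (log2 change -0.95). Scap, the SREBP escort gene, was not called at 31.2 and 29.5 FPKM. Enzymes of the mevalonate pathway fell, among them Hmgcs1 from 53.5 to 30.03 FPKM, Mvk from 23.9 to 14.6 FPKM, Mvd from 20.7 to 11.0 FPKM and Fdps from 25.3 to 14.97 FPKM. The later enzymes Sqle, Lss and Cyp51 fell by 0.39, 0.54 and 0.57 on the log2 scale. Fdft1, the squalene synthase gene, was not called although its values were 21.8 and 13.9 FPKM. Npc2, a lysosomal cholesterol carrier gene, was the member that rose, from 149 to 176 FPKM.

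SREBP binds short sterol elements, of which the form TCACNCCAC was searched on both strands. It was present in 1.22% of all promoter windows and in 1 of 22 windows of the sterol list, that of Hmgcs1, printed here with the element in capitals. CCAAT, the element of the partner factor NF-Y, was present on either strand in 17 of 22 sterol windows (77.3%), against 38.8% of windows of tested loci with 1 symbol. Other lists held it too, in 14 of 23 amino acid synthesis (60.9%), 8 of 15 collagen (53.3%) and 7 of 14 amino acid transporter windows. The counts were 6 of 12 in cytosolic tRNA synthetases, 7 of 15 in fatty acid synthesis and 9 of 20 in the ATF4 and CHOP core. In the sarcomere and ribosome biogenesis lists they were 10 of 24 and 10 of 29.

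Hmgcs1, chr13:119690174-119690262, plus strand: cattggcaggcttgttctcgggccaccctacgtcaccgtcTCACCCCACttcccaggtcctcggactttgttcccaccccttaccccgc

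Fatty acid synthesis loci fell in 10 of 19 cases and rose in 3, with a median of -0.17. Without the 3 combined loci, whose symbols share 1 value, 8 fell and 2 rose. Srebf1 fell from 32.9 to 22.02 FPKM, the desaturase genes Scd1 and Fads2 from 39.9 to 28.1 and from 56.2 to 39.0 FPKM, and Fasn, the fatty acid synthase gene, from 75.5 to 67.2 FPKM. Elovl5, an elongase gene, was not called at 31.9 and 33.8 FPKM. Lipid storage genes split: Plin2, the coat protein gene of lipid droplets, rose from 138 to 237 FPKM, Angptl4, which inhibits lipoprotein lipase, from 27.3 to 46.7 FPKM and Pparg from 11.9 to 17.9 FPKM. Lpl, the lipase itself, fell from 6.86 to 2.71 FPKM and Cebpa, a partner of Pparg in fat cells, from 8.59 to 3.48 FPKM. The fat cell markers Adipoq, Plin1, Cidec and Lep were not tested, at or under 0.0101 FPKM in both groups.

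Protein quality control was counted in an endoplasmic reticulum list and a heat shock list. Of 27 endoplasmic reticulum loci 14 fell and 2 rose, with a median of -0.15. The chaperone genes Hspa5, Hsp90b1 and Calr fell from 364 to 306, from 331 to 266 and from 659 to 525 FPKM, Xbp1, their transcription factor, from 34.1 to 26.9 FPKM and Sdf2l1 from 29.3 to 16.7 FPKM. The 2 rises were Herpud1, from 44.3 to 85.8 FPKM, and the oxidoreductase gene Ero1l, from 7.98 to 14.2 FPKM. Among heat shock genes 8 of 23 rose and 6 fell, with a median of 0.02. Of these, the mitochondrial chaperone and protease genes Hspa9, Hspd1, Hspe1 and Lonp1 rose, with Hspa9 going from 213 to 366 FPKM and Lonp1 from 74.9 to 118 FPKM. The inducible cytosolic chaperone gene Hspa1b and the small heat shock gene Cryab fell from 25.2 to 15.6 and from 272 to 196 FPKM.

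Proteasome subunits rose in 13 of 32 cases and fell in none, by at most 0.41 (Psmc6), with a median of 0.15. Of these rises 7 were called at q below 0.01 in the authors' deposited table. Of 36 lysosome and autophagy loci 3 rose (8.33%) and 7 fell (19.4%), against 18.3% and 18.2% of all tested loci. Sqstm1, the autophagy receptor p62 and an NRF2 target, rose from 427 to 624 FPKM, and the lysosomal master factor Tfeb fell from 7.59 to 5.74 FPKM. Antioxidant genes of the NRF2 list rose in 8 of 25 cases and fell in 4. Gclm and Txnrd1 rose from 33.7 to 44.7 and from 139 to 179 FPKM, and Gpx1 fell from 192 to 155 FPKM. Nqo1 and Nfe2l2, which encodes NRF2, were not called, at 63.8 and 65.9 and 42.4 and 44.4 FPKM.

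Muscle genes fell more often than they rose, among regulators, surface proteins and contractile proteins. The cells matched their label in both groups: all 8 myoblast markers were tested, of which 7 fell, and Des stood at 456 and 308 FPKM and Myod1 at 154 and 108 FPKM in high and low glucose. Of 21 tested muscle identity regulators 10 fell and 1 rose, with a median of -0.13. Myod1 fell by 0.51 on the log2 scale, Pax7, a stem cell factor, from 11.5 to 7.34 FPKM, Six4 from 9.55 to 6.45 FPKM and Myog, the differentiation factor, from 3.61 to 1.42 FPKM. Myf5 had 19.1 and 17.6 FPKM and was not called (q = 0.278 in the authors' deposited table). Snai2, a repressor that myoblasts express before they differentiate, rose from 21.0 to 29.0 FPKM. In bulk RNA, fewer cells of a kind and less RNA per cell cannot be told apart.

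The Notch pathway, which keeps muscle stem cells undifferentiated, fell in 11 of 18 tested cases and rose in 2, with a median of -0.29. The receptors Notch3, Notch1 and Notch2 fell from 12.9 to 4.80, from 9.74 to 5.57 and from 28.0 to 22.8 FPKM. The target genes Hes1, Hey1 and Heyl fell, Hes1 from 69.2 to 43.1 FPKM, and so did Hes6, which opposes Hes1, from 49.4 to 21.6 FPKM. The ligands differed: Jag2 fell from 36.6 to 27.7 FPKM, Jag1 rose from 2.56 to 4.20 FPKM and Dll1 was not called at 1.83 and 1.69 FPKM. The DNA-binding partner gene Rbpj rose from 2.39 to 2.99 FPKM.

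Surface proteins of satellite cells, the stem cells of muscle, fell in 10 of 16 cases with a median of -0.37. Fgfr4 fell from 8.73 to 1.81 FPKM, the M-cadherin gene Cdh15 from 104 to 46.7 FPKM, the chemokine receptor gene Cxcr4 from 53.5 to 27.9 FPKM, the laminin receptor gene Itga7 from 122 to 79.0 FPKM and Sdc4 from 97.0 to 70.4 FPKM. Sdc3, the other syndecan gene of the list, rose from 70.9 to 121 FPKM. Ncam1 and Met were not called at 46.3 and 49.5 and 15.6 and 15.7 FPKM.

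The neuromuscular junction list fell in 9 of 13 cases and rose in none, with a median of -0.45. The acetylcholine receptor subunit genes Chrna1, Chrnb1, Chrnd and Chrng all fell, Chrnd from 8.41 to 2.70 FPKM and Chrng, the embryonic subunit, from 3.33 to 0.751 FPKM. The agrin receptor complex fell with them, Lrp4 from 12.2 to 6.51 FPKM, Musk from 16.6 to 13.3 FPKM and its activator Dok7 from 6.66 to 4.36 FPKM, while Agrn, the ligand, was not called at 12.1 and 10.9 FPKM.

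Sarcomere and calcium-handling genes fell in 20 of 27 tested loci and rose in 1, with a median of -0.47, or -0.83 with no pseudocount. Tnnt1, the slow troponin T gene, fell from 5.99 to 1.16 FPKM, Actn3, the fast fibre actinin gene, from 9.27 to 3.61 FPKM, Mylpf from 12.8 to 7.18 FPKM and Acta1, the skeletal actin gene, from 16.1 to 11.1 FPKM. Myh2, Myh3, Myh4 and Myh8 share 1 combined locus, at 0.968 and 0.583 FPKM, and cannot be separated. Abundant members that non-muscle cells also use were not called, Tpm1 at 599.9 and 564 FPKM and Tpm2 at 339 and 311 FPKM. Fusion and adhesion genes fell in 10 of 21 cases and rose in 3. Tmem8c, which encodes the fusogen myomaker, fell from 3.74 to 1.68 FPKM and the integrin gene Itga3 from 58.7 to 29.2 FPKM, and Itgb1 rose from 190.4 to 221 FPKM. In the actin cytoskeleton list 8 of 23 fell and 1 rose, with Myl9 going from 167 to 73.1 FPKM, Synpo from 15.3 to 4.53 FPKM and the smooth muscle actin gene Acta2 from 1113 to 844 FPKM.

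**Figure D4:**
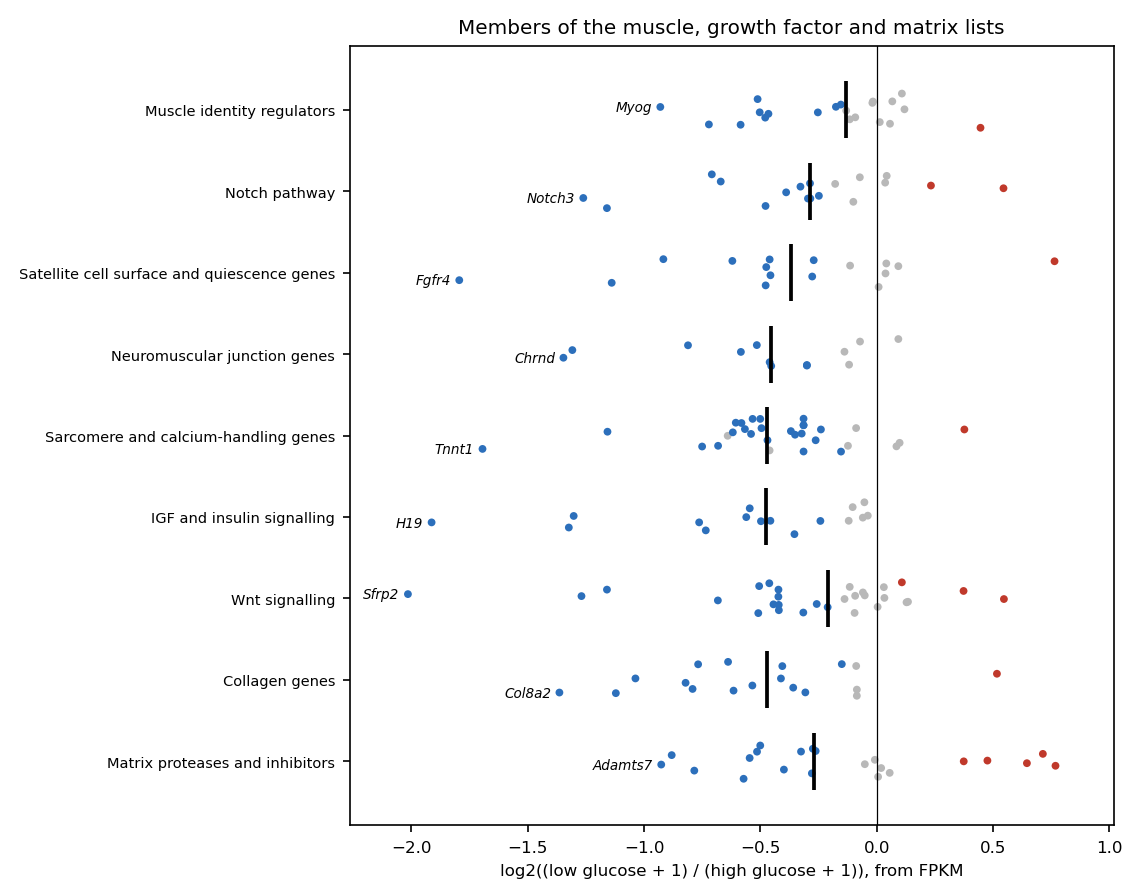
Log2 change from high to low glucose (x axis) of each tested member of 9 lists of muscle, growth factor and matrix genes; blue points were called lower, red points higher and grey points not called, and black bars mark list medians. All 9 medians lie left of 0, from -0.13 in muscle identity regulators to -0.48 in IGF and insulin signalling.

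Matrix genes were lower as well. Of 18 tested collagen genes 14 fell and 1 rose, with a median of -0.47. Both chains of fibrillar collagen I fell, Col1a1 from 30.4 to 19.5 FPKM and Col1a2 from 298 to 175 FPKM, and Col3a1 fell from 225 to 129.5 FPKM. The chains of the microfibril collagen VI went apart: Col6a1 and Col6a2 fell from 27.1 to 11.9 and from 8.90 to 4.603 FPKM and Col6a3 rose from 55.2 to 79.4 FPKM. Of 24 loci for collagen processing and elastic fibres 11 fell and 4 rose. The crosslinking enzymes Lox and Loxl1 fell from 138 to 96.1 and from 64.4 to 25.2 FPKM, and Fbln2 and Fbln5, elastic fibre genes, rose from 132 to 195 and from 3.96 to 6.23 FPKM.

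Of 30 proteoglycan and matricellular loci 17 fell and 3 rose, with a median of -0.25. Beside Ogn and Mgp, Thbs1 fell from 335 to 133 FPKM, Nid2 from 52.5 to 20.6 FPKM and Spp1, the osteopontin gene, from 1306 to 931 FPKM. Nid1, the paralog of Nid2, rose from 198 to 226 FPKM and Ctgf from 82.2 to 115 FPKM. Fn1, the fibronectin gene, was not called at 606 and 594 FPKM. Among proteases and their inhibitors 12 of 22 fell and 5 rose, and these 5 did not include a matrix metalloprotease. Mmp2, Mmp14 and the aggrecanase gene Adamts5 fell from 32.4 to 21.9, from 209.7 to 167 and from 2.66 to 0.986 FPKM. The inhibitor genes Timp1 and Timp3 rose from 327 to 538 and from 75.3 to 129 FPKM, and Timp2 was not called at 282 and 286 FPKM.

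Markers of other cell types were read beside the matrix lists. All 4 tested fibroblast markers (Pdgfrb, Col1a1, Dcn and Pdgfra) fell, and the 6 together summed to 85.1 FPKM in high and 53.6 FPKM in low glucose. Lum and Thy1, which also define fibroblasts, were listed at 0 in both groups. The part of fibroblast markers in the matrix counts was not tested. Of 5 tested osteoblast and chondrocyte markers 2 rose, Sp7 from 0.242 to 0.621 FPKM and Col2a1 from 0.165 to 0.445 FPKM, and Sox9 fell from 32.8 to 25.8 FPKM, with a median of 0.14; the 8 together summed to 55.0 and 50.7 FPKM. Of 6 adipocyte markers Pparg rose from 11.9 to 17.9 FPKM, Fabp4 was not called at 0.433 and 0.524 FPKM and the other four were at or near 0. No endothelial marker of 5 was tested, at 0.0843 and 0.149 FPKM summed. Of the macrophage markers, Ptprc, Emr1, Csf1r and Lyz2 were each at or under 0.0942 FPKM, and Cd68 lies in a combined locus with Eif4a1. Of 5 neuronal markers Rbfox3, Snap25 and Syt1 were at or near 0, and Tubb3, also found in dividing cells, rose from 81.2 to 97.4 FPKM.

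**Figure D5:**
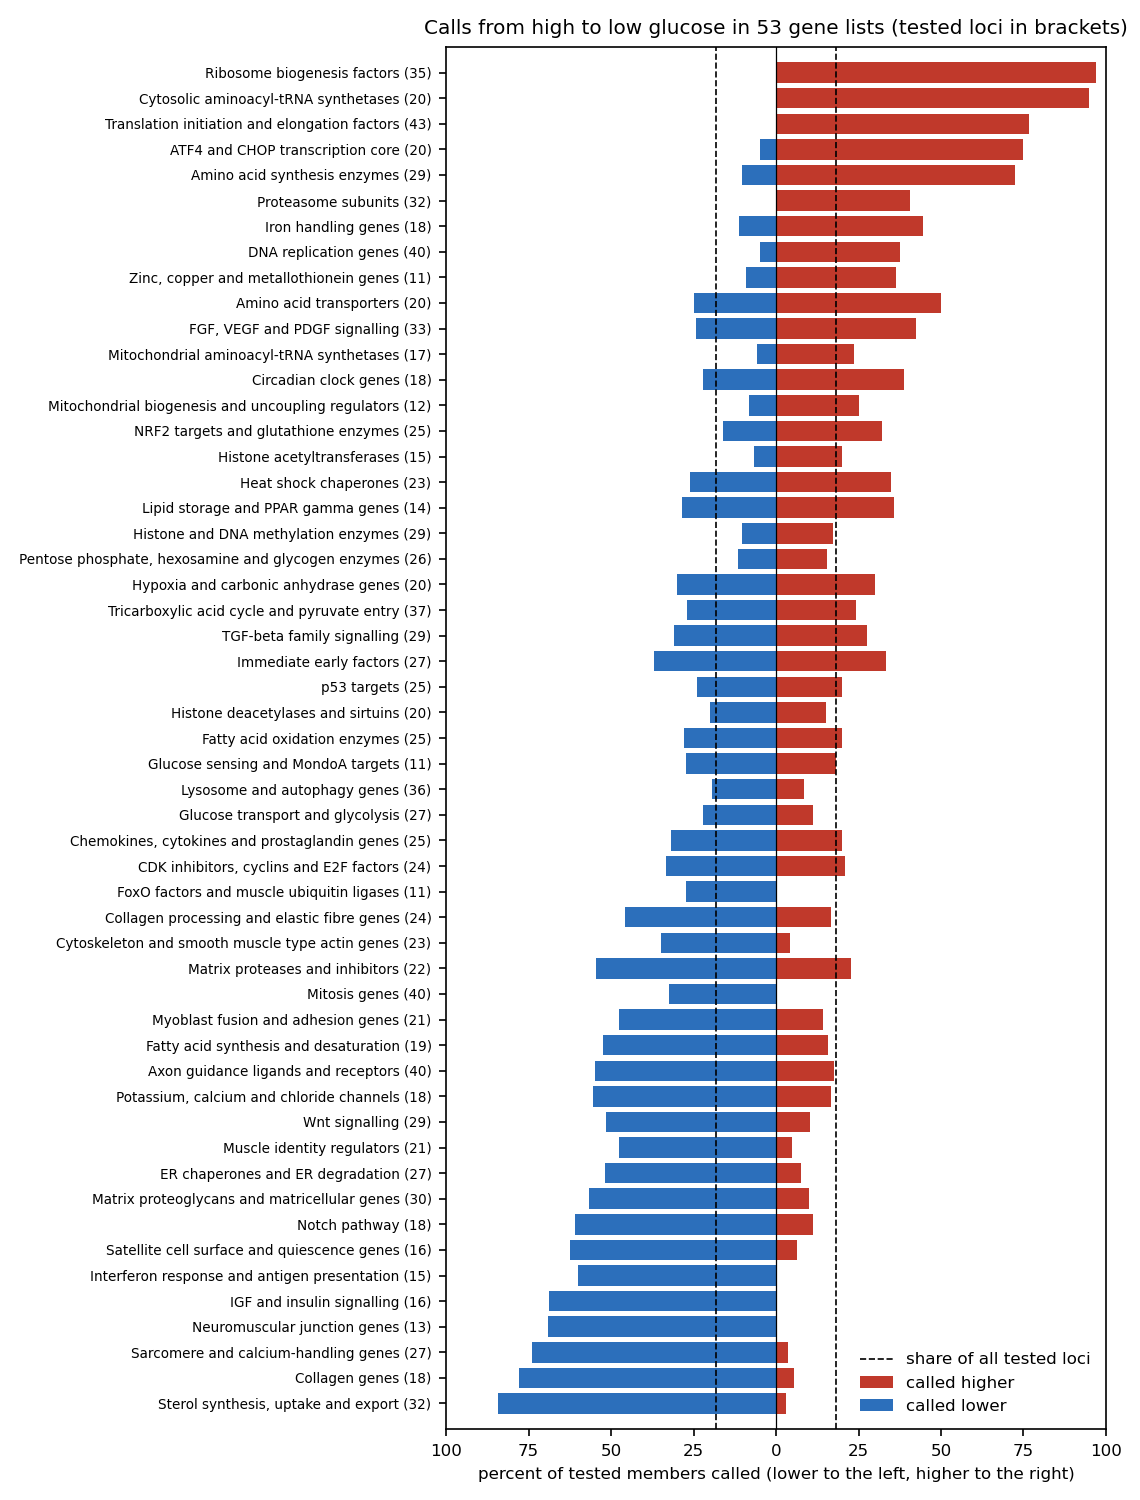
Percent of tested members called higher (red, to the right) and lower (blue, to the left) in low glucose for each of 53 gene lists, with the number of tested loci in brackets and dashed lines at the shares of all tested loci, 18.3% and 18.2%. Ribosome biogenesis stands at the top with 97.1% higher and sterol genes at the bottom with 84.4% lower.

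The growth factor lists are given by family. The IGF and insulin list fell in 11 of 16 cases and rose in none, with a median of -0.48. Igf2 fell from 4.50 to 2.31 FPKM, the binding protein genes Igfbp5 and Igfbp4 from 224 to 89.1 and from 4.93 to 1.40 FPKM and the adaptor gene Irs1 from 27.3 to 19.04 FPKM. The receptor genes Igf1r and Insr were not called, at 6.43 and 6.13 and 3.86 and 3.52 FPKM. H19, which lies beside Igf2 in the same imprinted region, fell by 1.91 on the log2 scale.

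FGF, VEGF and PDGF signalling rose in 14 of 33 cases and fell in 8. Ligand genes went both ways. Among those that rose were Vegfa from 84.9 to 136 FPKM, Vegfc from 9.58 to 15.1 FPKM, Fgf2 from 2.44 to 4.98 FPKM and the EGF family gene Areg from 11.5 to 17.7 FPKM. Pdgfb fell from 2.81 to 0.640 FPKM, Figf, the gene of VEGF-D, from 3.83 to 1.78 FPKM and the receptor gene Pdgfrb from 52.2 to 32.2 FPKM. Fgfr1, the most abundant receptor gene of the family here per length, was not called at 72.0 and 76.9 FPKM.

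TGF-beta family genes rose in 8 of 29 cases and fell in 9, with a median of -0.0018. The inhibitory factor genes Smad7 and Smad6 rose from 23.3 to 38.2 and from 16.3 to 23.9 FPKM, and Smad3, a signal-carrying factor, fell from 10.4 to 5.92 FPKM. The antagonist gene Grem1 rose from 264 to 353 FPKM, and the ligand gene Bmp4 fell from 10.3 to 5.17 FPKM. The activin subunits went apart, Inhba rising from 56.0 to 94.95 FPKM and Inhbb falling from 17.3 to 9.11 FPKM.

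Wnt genes fell in 15 of 29 cases and rose in 3, with a median of -0.21. Wnt10a and Wnt10b fell from 11.3 to 4.12 and from 14.4 to 5.88 FPKM, the receptor gene Fzd1 from 32.0 to 22.3 FPKM and the extracellular modulator genes Sfrp2 and Dkk3 by 2.01 and 0.68 on the log2 scale. Wnt4 rose from 8.45 to 12.8 FPKM, and Ctnnb1, the beta-catenin gene, was not called at 200.1 and 205 FPKM. Axon guidance genes fell in 22 of 40 cases and rose in 7, among them Sema3d, Sema6a and Ephb3 lower and Unc5b and Efnb1 higher. Sema3d went from 2.63 to 0.743 FPKM and Unc5b from 67.1 to 96.5 FPKM.

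Immediate early genes split within families. Of 27 tested, 9 rose and 10 fell. Egr1, Egr2, Fos and Jun fell, Egr1 from 41.9 to 29.97 FPKM and Jun from 97.4 to 75.2 FPKM, while Fosl1, Klf4 and Maff rose, Fosl1 from 130.5 to 190.3 FPKM and Klf4 from 32.5 to 48.6 FPKM. Among chemokines, cytokines and prostaglandin genes 5 of 25 rose and 8 fell. Both cyclooxygenase genes rose, Ptgs2 from 18.9 to 40.02 FPKM and Ptgs1 from 154 to 229 FPKM, and the prostacyclin synthase gene Ptgis fell from 44.9 to 29.96 FPKM. Cxcl1, Cxcl5 and Il33 fell, Cxcl1 from 9.61 to 4.45 FPKM, and Ccl7 rose from 17.5 to 25.7 FPKM. Interferon genes fell in 9 of 15 cases and rose in none, with a median of -0.18, and 14 further members were not tested. Ifitm1 fell from 6.12 to 2.09 FPKM and Irf1 from 13.9 to 8.86 FPKM, whereas B2m was not called at 220.2 and 219 FPKM.

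Cell cycle genes were counted in a replication and a mitosis list, and in each most members were not called. DNA replication genes rose in 15 of 40 cases and fell in 2, with a median of 0.13, and mitosis genes fell in 13 of 40 cases and rose in none, with a median of -0.08; the difference between the lists was not tested. Rrm2, a ribonucleotide reductase gene, rose from 311 to 442 FPKM and Pcna, the sliding clamp gene, from 125 to 156 FPKM. Ccnb2 fell from 70.3 to 51.3 FPKM and Plk1 from 79.9 to 66.4 FPKM, and Mki67 and Top2a were not called at 45.6 and 41.5 and 108 and 108 FPKM. With q below 0.01 in the authors' deposited table, 8 mitosis genes were called lower and none higher. At the same limit 12 replication genes were called higher and none lower. The D cyclins went apart, with Ccnd1 rising from 215 to 291 FPKM, Ccnd2 from 5.40 to 9.08 FPKM and Ccnd3 falling from 83.3 to 64.7 FPKM. The inhibitor genes Cdkn1c, Cdkn2c and Cdkn2d fell from 3.28 to 1.33, from 36.5 to 26.2 and from 56.5 to 34.9 FPKM, and Cdkn1a was not called at 92.2 and 91.4 FPKM. Of 25 targets of p53 5 rose (20%) and 6 fell (24%), against 18.3% and 18.2% of all tested loci. Gadd45a rose from 28.8 to 56.4 FPKM and Sesn1, a relative of Sesn2, fell from 8.42 to 5.17 FPKM.

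Clock genes held both directions, 7 of 18 higher and 4 lower. The activator genes Arntl and Clock rose from 5.79 to 8.21 and from 12.7 to 15.7 FPKM, Nr1d2 from 11.1 to 14.8 FPKM and Gm129, now named Ciart, from 2.33 to 5.26 FPKM. Per1 and Per3 fell from 8.74 to 6.97 and from 1.87 to 1.29 FPKM, and Cry1 and Per2 were not called at 7.72 and 8.53 and 1.66 and 1.47 FPKM. The hour of day at which each group was collected is not in the labels.

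Chromatin enzymes, which the series title names through histone acetylation, had shares of calls near or under those of all tested loci (18.3% higher and 18.2% lower). Of 15 acetyltransferase and reader loci 3 rose and 1 fell (6.67%), with a median of 0.02. Hat1 rose from 51.6 to 62.9 FPKM and Kat2a from 42.5 to 49.5 FPKM, and Ep300 and Crebbp were not called at 15.05 and 15.2 and 14.3 and 13.8 FPKM. Of 20 deacetylase and sirtuin loci 3 rose and 4 fell, with 13 not called. Hdac5, a repressor of muscle gene factors, fell from 28.3 to 19.3 FPKM, Hdac2 rose from 63.2 to 77.7 FPKM and Sirt1 rose from 5.92 to 6.73 FPKM (q = 0.0413 in the authors' deposited table). Of 29 methylation loci 5 rose (17.2%) and 3 fell (10.3%), and the rises held 3 genes of the Polycomb complex that methylates histone H3, Ezh2, Suz12 and Eed, Ezh2 going from 30.3 to 35.8 FPKM. Ezh1, the paralog of Ezh2, fell from 5.25 to 4.02 FPKM.

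The remaining lists were smaller or mixed. Iron handling genes rose in 8 of 18 cases and fell in 2: the transferrin receptor gene Tfrc rose from 35.3 to 48.5 FPKM and the iron exporter gene Slc40a1 fell from 1.35 to 0.438 FPKM. The metallothionein genes Mt1 and Mt2 rose from 936 to 1148 and from 259.6 to 335 FPKM, and Sod3, the extracellular superoxide dismutase gene, fell from 15.4 to 4.84 FPKM. In the hypoxia and carbonic anhydrase list 6 of 20 rose and 6 fell; Car2 fell from 5.39 to 1.71 FPKM and Hif1a was not called at 29.7 and 31.0 FPKM. Channel genes fell in 10 of 18 cases and rose in 3. Kcnj2, an inward rectifier gene, fell from 2.18 to 0.503 FPKM, and Piezo1, a mechanosensitive channel gene, rose from 58.0 to 74.2 FPKM. Of the FoxO and ubiquitin ligase list 3 of 11 fell (27.3%, against 18.2% of all tested loci) and none rose. Fbxo32, the atrophy-linked ligase gene atrogin-1, fell from 4.78 to 2.27 FPKM, and Foxo1 and Foxo3 were not called at 8.75 and 8.91 and 8.28 and 7.98 FPKM.

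Values in galactose, where glucose was absent, are set beside some of these members; both comparisons use the same high glucose libraries, so the second is not independent of the first. Trib3 stood at 5.58, 49.0 and 118 FPKM in high glucose, low glucose and galactose. Cth stood at 1.37, 9.08 and 61.0 FPKM, Hmgcs1 at 53.5, 30.03 and 13.6 FPKM, Myod1 at 154, 108 and 71.5 FPKM and Ncl at 122, 216 and 274 FPKM in the same order. Txnip stood at 10.3, 6.21 and 0.160 FPKM and Slc2a1 at 91.2, 72.1 and 121 FPKM. Among the 15 largest rises, Lce1g had its highest value in low glucose, at 11.7, 43.2 and 21.8 FPKM in the same order. The authors' test of low glucose against galactose gave a q of 0.0166 for Lce1g in the authors' deposited table. That test does not use the high glucose libraries. It does use the low glucose libraries by which Lce1g was ranked, so it is not independent of that ranking. Myog stood at 3.61, 1.42 and 2.78 FPKM, Tnni2 at 1.26, 0.484 and 1.57 FPKM and Acta1 at 16.1, 11.1 and 30.2 FPKM. Low glucose was the lowest of the 3 groups for each, and by these same low glucose values the genes were called lower.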

How the data were processed

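PolyA RNA of C2C12 cells in high glucose, low glucose or galactose was sequenced, 4 libraries per group. The authors' tools, per the submitters' processing notes, were TopHat2 2.0.10, Cufflinks 2.2.0 and Cuffdiff, with genome build mm10; settings, normalization between libraries and the treatment of reads that map to several places are not given in the sources used here. The deposited table lists, for each group and locus, 1 pooled FPKM value, the authors' p-value, and their q-value, which was recomputed as a Benjamini-Hochberg adjustment over 44006 tests in 3 comparisons (largest difference 5.26e-07). The lowest deposited p-value is 5e-05, reached by 2419 loci of this comparison. The deposited log2 fold change equals the ratio of the 2 FPKM values on the log2 scale, with 25 tested loci off by over 0.01. Without values per library no test was rerun, and the spread between libraries cannot be shown.

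From the FPKM values, log2((low + 1) / (high + 1)) was computed for the 14699 tested loci, and calls were taken at q below 0.05. Gene lists (53, with 1412 symbols, of which 1408 were found, 10 through another symbol) and 7 marker lists were described by counts and medians; members and lists were chosen with earlier results of these data known. A symbol in several loci was read from 1 of them. Genes were named by rank of change among called loci with 1 symbol that is no predicted or small RNA name (15 in each direction), by rank of change within a list (up to 6 called members, and up to 3 others where fewer than 3 were called), or from 22 symbols set down in the plan; other list members were added after their values were seen, and some genes are not reported here. Motifs were searched in RefSeq promoter windows (GRCm38.p6), 1 window per symbol. The scripts were tested on simulated data. Python 3.11.15, pandas 2.3.3, numpy 2.4.6 and matplotlib 3.10.9 were used.

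Alternatives were q below 0.01, adjustment within this comparison, a larger value of at least 1 FPKM, loci with 1 symbol only, log2 changes of at least 0.5 or 1, other pseudocounts, re-centring and another ranking.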

Additional observations from a re-analysis of the deposited data

How the results depend on the processing

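Of 14699 tested loci 5355 were called, 2683 higher and 2672 lower. With an absolute log2 change of at least 0.5 the counts were 982, 440 and 542, and of at least 1 they were 150, 68 and 82. With the authors' deposited q below 0.01, 3961 were called (1957 higher and 2004 lower), with adjustment within this comparison 5231, with a larger value of at least 1 FPKM 4902 (2612 and 2290) and with 1 symbol only 4475 (2090 and 2385). Re-centring on the median changed the sign of 0 called loci. Of 106 list counts, 11 moved by more than 1.5 times at q below 0.01: members higher fell from 4 to 2 in pentose phosphate, from 9 to 4 in the tricarboxylic acid cycle, from 3 to 1 in fatty acid synthesis, from 13 to 7 in the proteasome, from 5 to 3 in methylation enzymes and in CDK genes, and from 8 to 4 in heat shock genes; members lower fell from 5 to 3 in amino acid transporters, from 1 to 0 in mitochondrial tRNA synthetases, from 2 to 0 in replication and from 13 to 8 in mitosis. Without combined loci 2 counts moved, fatty acid oxidation higher from 5 to 2 and CDK genes higher from 5 to 3. With at least 1 FPKM, iron genes lower went from 2 to 1. The sarcomere median was -0.83 with no pseudocount. Ranking by the ratio with no pseudocount among loci with a mean of at least 5 FPKM shared 13 of the 15 largest rises and 12 of the 15 largest falls. No paired analysis was possible because the table holds 1 pooled value per group; for the same reason no library could be left out. Depth is unknown, so it cannot be said which uncalled genes were measured too coarsely.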

Other observations

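Loci that the deposited table lists with no gene symbol had other shares of calls than named genes. Of 2831 such tested loci 727 were called (25.7%), of which 525 rose and 202 fell, against 4475 of 11402 loci with 1 symbol (39.2%), 2090 higher and 2385 lower. They had a median span of 520 bases. The 29 that were called with a log2 change of at least 1 had a median span of 114 bases. The largest, on chromosome 6 from 39843886 to 39843974 (mm10), was listed at 0 in high glucose, 30.4 FPKM in low glucose and 50.1 FPKM in galactose. Only 3 unnamed loci were called with a log2 change of -1 or lower.

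Calls were spread unevenly over chromosomes. On chromosome X 20.6% of 613 tested loci were called higher and 9.95% lower, with a median log2 change of 0.06. On chromosome 15, 17.7% of 617 were called higher and 26.9% lower, with a median of -0.05. These values were read after the data were seen and were not tested.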
